A study of Zeugodacus cucurbitae with 6 samples.

Results

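The genes described here are the imaginal disc growth factor genes of the melon fly, *Zeugodacus cucurbitae*, in 3rd instar larvae that hatched from irradiated or non-irradiated eggs. They were chosen by name, as every gene whose identifier starts with Idgf, which gave 2 of the 12834 genes in the table, Idgf4_0 and Idgf4_1. Only 1033 of the 12834 identifiers are symbols, and genes listed under LOC and a number were not searched for further members of the family. Eggs about 25 h old received cobalt-60 gamma radiation at 50 Gy and 1.0 Gy per minute (irradiated group) or 0 Gy (non-irradiated group), and the labels give no other difference between the groups. Each group holds 3 libraries, and each library is a pool of 20 whole larvae on the same artificial diet, so a value is an average over tissues and individuals.

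Imaginal disc growth factors are secreted proteins that were first isolated in *Drosophila* from medium conditioned by cultured imaginal disc cells, the cells that form the adult wing, leg and eye. In that species they promote growth and movement of disc cells together with insulin, are made largely in the fat body and in blood cells, and take part in the organisation of chitin in the cuticle. They are relatives of chitinases that lack a residue needed to cut chitin, so they are called chitinase-like proteins. These roles are known from *Drosophila* and were not measured in these larvae.

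The libraries hold between 13192748 and 18311658 counts on genes. Irradiated replicates 1 and 2 were far more alike than any other pair, with a Spearman correlation of 0.996 across genes against at most 0.977 in the other 14 pairs. They are counted as labelled, as separate libraries, and the fold changes of the Idgf genes are also given with their counts summed into 1 library. According to the methods of the study, replicates were set up as separate sets of egg dishes. Whether they were irradiated or reared on different days is not given in the sources used here, so the errors measure the spread between these libraries. Both Idgf genes had at least 3421 counts in every library, and counting error alone was between 0.641% and 1.71% of the count.

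Idgf4_0 was the more abundant of the 2 genes. FPKM is the count scaled by gene length and library total, and from count and total the deposited values imply a length of 1668 bp for Idgf4_0 and 1402 bp for Idgf4_1. In FPKM, Idgf4_0 stood at 402, 408 and 524 in the non-irradiated libraries, given in the order of replicates 1, 2 and 3 here and below, and at 619, 628 and 824 in the irradiated libraries. Every irradiated library lay above every non-irradiated library, and replicate 3 was the highest within each group. The means were 444 ± 68.8 FPKM in non-irradiated and 691 ± 116 FPKM in irradiated larvae (SD, n = 3 libraries each). Between the lowest irradiated and the highest non-irradiated library the gap was 1.18-fold in FPKM.

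Idgf4_1 had the lower level and the wider step between the groups. Its FPKM was 205, 173 and 178 without irradiation, and 328, 326 and 547 after it. Again no value of one group fell within the range of the other, and irradiated replicate 3 stood well above the other irradiated libraries. The means were 185 ± 17.3 FPKM in non-irradiated and 400.3 ± 127 FPKM in irradiated larvae (SD, n = 3 libraries each). The lowest irradiated library exceeded the highest non-irradiated library by 1.59-fold in FPKM.

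**Figure D1:**
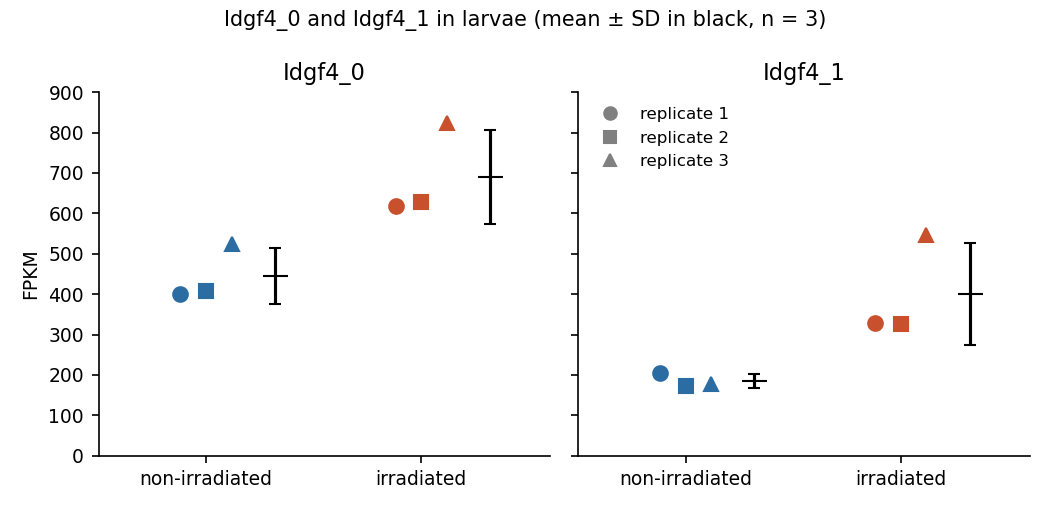
FPKM of Idgf4_0 (left) and Idgf4_1 (right) in each library, with non-irradiated libraries in blue, irradiated libraries in red, and the marker giving the replicate number. Black bars are the mean and SD (n = 3). The irradiated libraries lie between 619 and 824 for Idgf4_0 and between 326 and 547 for Idgf4_1, above all non-irradiated libraries of the same gene, and irradiated replicate 3 is the highest for both.

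Ordered by mean FPKM, the levels ran from Idgf4_1 in non-irradiated larvae (185), through Idgf4_1 in irradiated larvae (400.3) and Idgf4_0 in non-irradiated larvae (444), to Idgf4_0 in irradiated larvae (691). The middle pair did not differ beyond the spread between libraries, since the range of Idgf4_1 in irradiated larvae, from 326 to 547, encloses that of Idgf4_0 in non-irradiated larvae, from 402 to 524. The neighbours at either end of this order did not overlap.

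Both genes ranked high among all genes of the table. By FPKM, Idgf4_0 ranked between 256 and 322 without irradiation and between 197 and 230 after it, where rank 1 is the most abundant of 12834 genes. Idgf4_1 ranked between 515 and 596 and between 250 and 383. As a share of all counts, Idgf4_0 ran from 0.067% (95% Wilson interval 0.0656% to 0.0684%) in non-irradiated replicate 1 to 0.138% (0.136% to 0.139%) in irradiated replicate 3. Idgf4_1 ran from 0.0242% (0.0234% to 0.0251%) in non-irradiated replicate 2 to 0.0767% (0.0754% to 0.078%) in irradiated replicate 3. These intervals cover counting error only, and they are narrow beside the differences between replicates.

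The difference between the groups was taken from a model fitted with edgeR to all 9768 genes with enough counts, a filter that both Idgf genes passed. CPM, the count scaled by the library total, was normalized between libraries with the TMM method, which scales each library so that most genes do not differ. Idgf4_0 stood at 740.4 ± 137 normalized CPM in non-irradiated and 1158 ± 184 in irradiated larvae (SD, n = 3 libraries each), a log2 fold change of 0.65 (standard error 0.20) or 1.56-fold. The corresponding means of Idgf4_1 were 258 ± 5.48 and 564 ± 174 (SD, n = 3 libraries each), a log2 fold change of 1.13 (standard error 0.22) or 2.19-fold. The median log2 fold change of all tested genes was -0.01, so both values lie above a centre close to 0. A log2 fold change at least as high was found in 7.74% of the tested genes for Idgf4_0 and in 3.35% for Idgf4_1.

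The family was singled out with the difference between irradiated and non-irradiated larvae already in view, so these fold changes are a description, and calls are given only as counts beside those of the whole table. The normalized CPM of the groups did not overlap, with the irradiated libraries higher, for 2 of 2 Idgf genes and for 15% of all tested genes, and the irradiated libraries were lower without overlap for 0 of 2 and for 13.4%. At the threshold in the study's methods (unadjusted p under 0.05, log2 fold change of at least 0.58 in size, FPKM above 1 in at least 1 library), 2 of 2 were called, both higher, beside 11.6% of all tested genes in either direction, 6% higher and 5.58% lower. Of the 16 alternatives, Idgf4_1 met this threshold in 16 and Idgf4_0 in 14, the exceptions being those without non-irradiated replicate 1 (log2 fold change 0.53) and without irradiated replicate 3 (0.51). At a Benjamini-Hochberg adjusted p under 0.05 over all tested genes, 1 of 2 was called, Idgf4_1, beside 3.74% of all tested genes in either direction, 2.14% higher and 1.6% lower. The adjusted p was 0.0435 for Idgf4_1 and 0.123 for Idgf4_0 with edgeR, and both were called with DESeq2 (1.4e-04 and 0.0288), beside 9.15% of all genes with a DESeq2 adjusted p. The edgeR call of Idgf4_1 was lost without any 1 of the 6 libraries, with edgeR adjusted p from 0.0533 to 0.0997, and with irradiated replicates 1 and 2 summed (0.102). It held in 6 of the 16 alternatives, and limma on log2 FPKM was among those in which it was lost (0.0592 and 0.0615). Nothing is read from these counts, which rest on the values that drew attention to the genes.

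The sizes depended more on single libraries than on the method. With irradiated replicates 1 and 2 summed, the log2 fold change was 0.71 for Idgf4_0 and 1.26 for Idgf4_1. Without irradiated replicate 3 it was 0.51 for Idgf4_0 and 0.85 for Idgf4_1, the lowest values over the 16 alternatives for either gene. The highest values were 0.80 for Idgf4_0, without non-irradiated replicate 3, and 1.26 for Idgf4_1, without irradiated replicate 2. In each of the 16 alternatives both genes were higher in irradiated larvae, and the value of Idgf4_1 exceeded that of Idgf4_0.

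**Figure D2:**
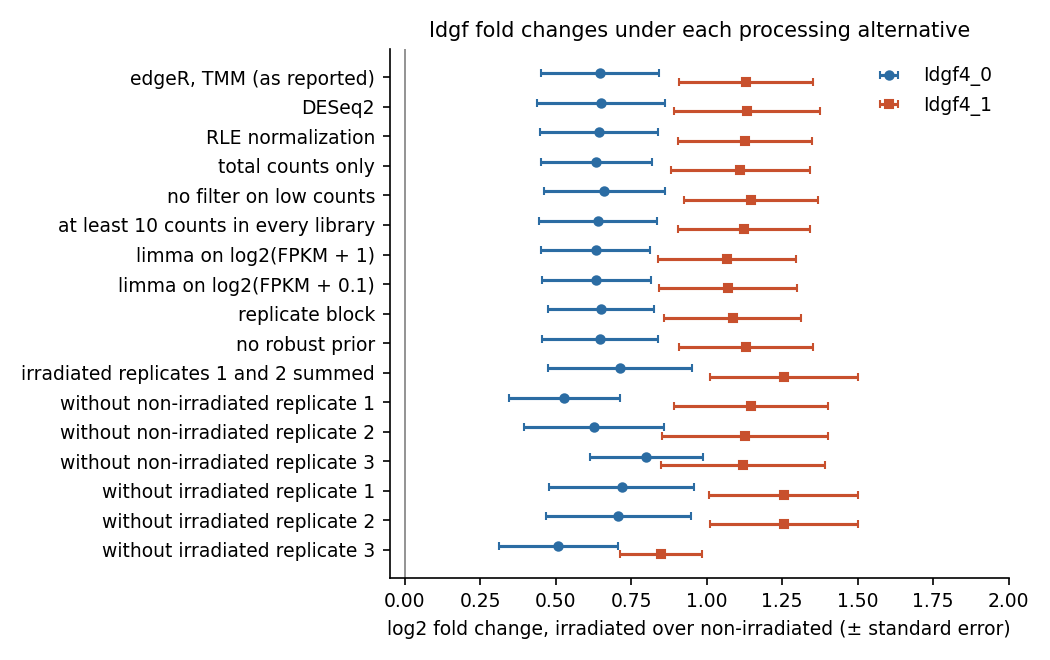
Log2 fold change of Idgf4_0 (blue circles) and Idgf4_1 (red squares), irradiated over non-irradiated, on the horizontal axis, with bars of ± 1 standard error, under the reported fit (top) and each of 16 alternatives. Values range from 0.51 to 0.80 for Idgf4_0 and from 0.85 to 1.26 for Idgf4_1, and the lowest of each is that without irradiated replicate 3.

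The balance between the genes can be read within each library, where the library total cancels out. Sequence shared by the genes could affect how reads were assigned to them, and was not assessed. The ratio of Idgf4_0 to Idgf4_1 in FPKM was 1.96, 2.36 and 2.94 without irradiation, and 1.89, 1.93 and 1.51 after it. Idgf4_0 therefore had the higher level in 6 of 6 libraries. The mean ratio was 2.42 ± 0.496 in non-irradiated and 1.77 ± 0.232 in irradiated larvae (SD, n = 3 libraries each). The irradiated ratios were all below the non-irradiated ones, but non-irradiated replicate 1 (95% exact binomial interval 1.89 to 2.04) could not be told apart at this depth from irradiated replicate 1 (1.84 to 1.94) or irradiated replicate 2 (1.88 to 1.98). Expressed as a share of the summed FPKM of both genes, Idgf4_1 made up 29.6 ± 4.23% in non-irradiated and 36.2 ± 3.18% in irradiated larvae (SD, n = 3 libraries each). Their summed FPKM was 581 to 702 in the non-irradiated and 947 to 1371 in the irradiated libraries.

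**Figure D3:**
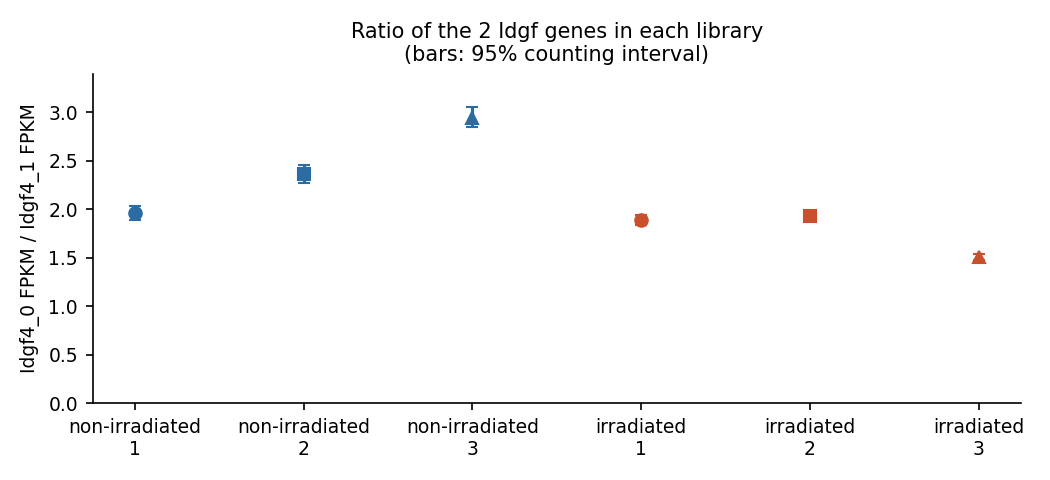
Ratio of Idgf4_0 FPKM to Idgf4_1 FPKM (vertical axis, from 0) in each of the 6 libraries, with 95% exact binomial intervals of the counts as bars. Non-irradiated libraries (blue) range from 1.96 to 2.94 and irradiated libraries (red) from 1.51 to 1.93, and the interval of non-irradiated replicate 1 overlaps those of irradiated replicates 1 and 2.

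The genes differed in how they varied between libraries of one group. In normalized CPM, Idgf4_1 spanned 1.04-fold between its lowest and highest non-irradiated libraries, and 1.65-fold among the irradiated ones. Idgf4_0 spanned 1.44-fold among non-irradiated and 1.31-fold among irradiated libraries. The non-irradiated spans depended on the scale. In FPKM, Idgf4_1 spanned 1.19-fold among non-irradiated and 1.68-fold among irradiated libraries, and Idgf4_0 1.30-fold and 1.33-fold. Pooled over both groups, the within-group SD of the log2 normalized CPM was 0.24 for Idgf4_0 and 0.30 for Idgf4_1, against a median of 0.23 over the 402 genes at least as abundant as Idgf4_1. Of those 402 genes, 53.5% had a smaller SD than Idgf4_0 and 60.9% a smaller SD than Idgf4_1. Across the 6 libraries the log2 normalized CPM of the genes had a Pearson correlation of 0.90, which the shared difference between groups raises, and the deviations from the group means had one of 0.58.

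The genes whose pattern over the 6 libraries was most like that of Idgf4_0 were taken by Pearson correlation of log2 normalized CPM, among the 930 other tested genes with a symbol. Among the first 5 were Tret1_18 (r = 0.99), Rop_1 (0.98), Ganab_3 (0.97) and Glg1_0 (0.97), and Idgf4_1 came at place 39 with 0.90. Tret1 genes encode trehalose transporters, trehalose being the main blood sugar of insects, and Tret1_18 had 39.8, 40.1 and 54.1 FPKM without irradiation and 58.5, 58.2 and 75.2 FPKM after it. As for Idgf4_0, replicate 3 was the highest of its group in both groups. Ganab encodes a glucosidase subunit that trims sugars on new proteins in the endoplasmic reticulum, Glg1 a Golgi glycoprotein, and Rop a partner of syntaxin in vesicle fusion. Their log2 fold changes were smaller than that of Idgf4_0, at 0.30 for Ganab_3, 0.40 for Glg1_0 and 0.23 for Rop_1.

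The most opposite patterns were those of Huti_3 (r = -0.99), Adf1_1 (-0.98), Sfum_2137 (-0.98), Lip1_2 (-0.98) and Orct_12 (-0.98). Lip1 genes encode lipases and Orct genes transporters of organic cations. Sfum_2137 had 67.0 ± 12.9 FPKM without and 37.8 ± 6.89 FPKM after irradiation, while Adf1_1 was barely detected at 0.368 ± 0.239 and 0.0512 ± 0.0296 FPKM (SD, n = 3 libraries each). None of these 5 had an edgeR adjusted p under 0.05, the lowest being 0.0568 for Sfum_2137. These correlations describe 6 libraries that share the 2 groups and include the nearly identical pair, and 416 of 9767 genes (4.26%) reached an r of at least 0.9 with Idgf4_0.

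**Figure D4:**
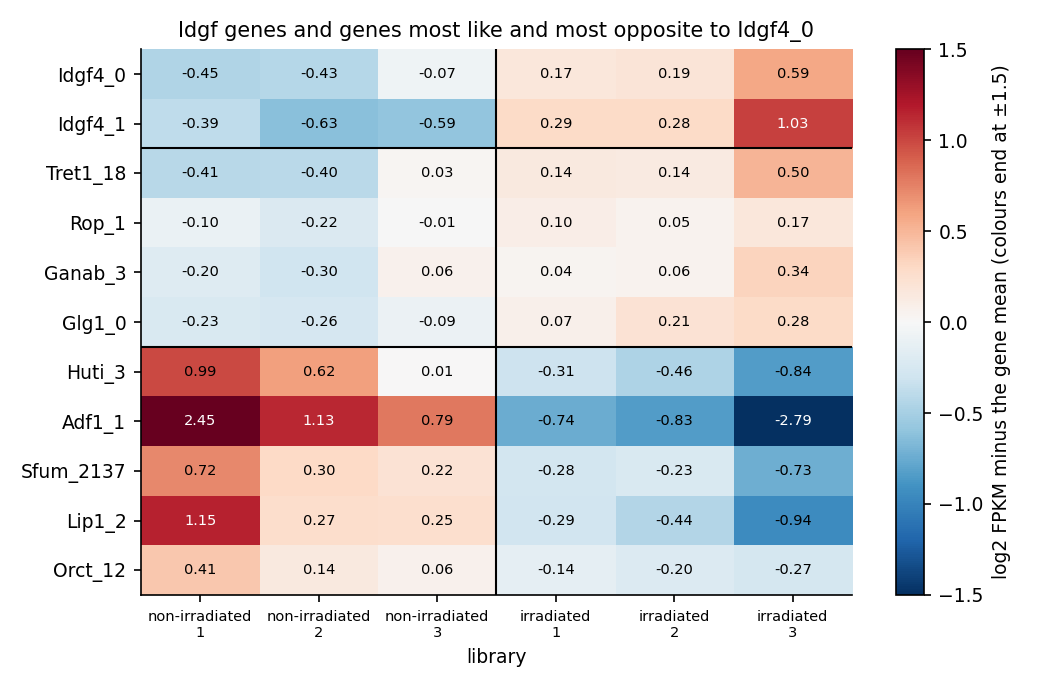
Log2 FPKM minus the mean of the gene over the 6 libraries (colour and printed value) for Idgf4_0, Idgf4_1, 4 of the 5 symbol-named genes with the highest correlation with Idgf4_0 and the 5 with the lowest, in rows, and the libraries in columns. Idgf4_0 runs from -0.45 in non-irradiated replicate 1 to 0.59 in irradiated replicate 3, and Idgf4_1 reaches 1.03 in that library.

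Because the Idgf proteins are relatives of chitinases, the genes with a chitin-related symbol were looked at beside them. Of 50 symbols searched, 5 genes were found, all of them chitinase symbols (Cht2, Cht3_6, Cht3_9, Cht3_11 and Cht3_12), enzymes that cut the chitin of cuticle and gut lining. At an adjusted p under 0.05, 0 of these 5 were called with edgeR, 0 had an unadjusted p under 0.05, and DESeq2 gave 0 and 2. The shares of all genes were 3.74% and 21% with edgeR, and 9.15% and 16.9% with DESeq2. Their median log2 fold change was -0.04, close to that of all tested genes. Cht3_6 had 9.10 to 17.9 FPKM in non-irradiated and 18.3 to 25.1 FPKM in irradiated libraries, a log2 fold change of 0.63 (standard error 0.29, edgeR adjusted p = 0.271). Cht3_11 had a log2 fold change of -1.60 (standard error 0.92, edgeR adjusted p = 0.385), and its non-irradiated libraries ranged from 0.221 to 2.76 FPKM. Cht3_12, the most abundant of the 5 at 124 ± 42.0 and 121 ± 20.9 FPKM (SD, n = 3 libraries each), had a log2 fold change of 0.01.

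One further gene carries the symbol Chit, which the search list did not hold and which was added once the names in the table were known. Its level was of the same order as that of the Idgf genes, with 504 to 1141 FPKM in non-irradiated and 1682 to 1915 FPKM in irradiated libraries. The groups did not overlap, while 15% of all tested genes were higher in irradiated libraries without overlap of normalized CPM. The log2 fold change of Chit was 1.00 (standard error 0.33, edgeR adjusted p = 0.15), which passed the adjusted threshold with DESeq2 (adjusted p = 0.0326) but in none of the other 15 alternatives. At the threshold in the study's methods Chit was called higher (edgeR unadjusted p = 0.0195), beside 6% of all tested genes. Non-irradiated replicate 1 was the lowest library of this gene, and without it the log2 fold change was 0.69.

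For insulin and TOR signalling, with which Idgf proteins act on *Drosophila* disc cells, 8 genes were found for 48 symbols, and 6 were tested. At an adjusted p under 0.05, 1 of the 6 was called lower and 0 higher, beside 1.6% and 2.14% of all tested genes, and 3 had an unadjusted p under 0.05, beside 21%. The lowered gene was the insulin receptor (Insr, LOC105217849), at 1.73 ± 0.343 FPKM in non-irradiated and 0.676 ± 0.0681 FPKM in irradiated larvae (SD, n = 3 libraries each). That is -1.33 on the log2 scale (standard error 0.20), and the edgeR adjusted p of 0.0243 became 0.0922 with irradiated replicates 1 and 2 summed. It also missed the threshold without non-irradiated replicate 3 (0.0534) and without irradiated replicate 1, 2 or 3 (0.1, 0.0907 and 0.0658). At the threshold in the study's methods 2 were called, both lower, beside 11.6% of all tested genes in either direction and 5.58% lower. They were Insr and the gene the study names Insp_1 (LOC105212945, log2 fold change -1.46, standard error 0.60, edgeR adjusted p = 0.224). Insr, Insp_1 and ImpE2, named further on, were selected from these libraries in the study for their lower level, so their direction is no independent result. The kinase gene Tor had a log2 fold change of 0.45 (edgeR adjusted p = 0.201), and Akt1_0, a kinase downstream of the receptor, had 0.13. The median over the 6 tested genes was 0.00. Levels of these genes, between 0.676 and 16.7 FPKM in group means over the 6 tested, were far below those of the Idgf genes.

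**Figure D5:**
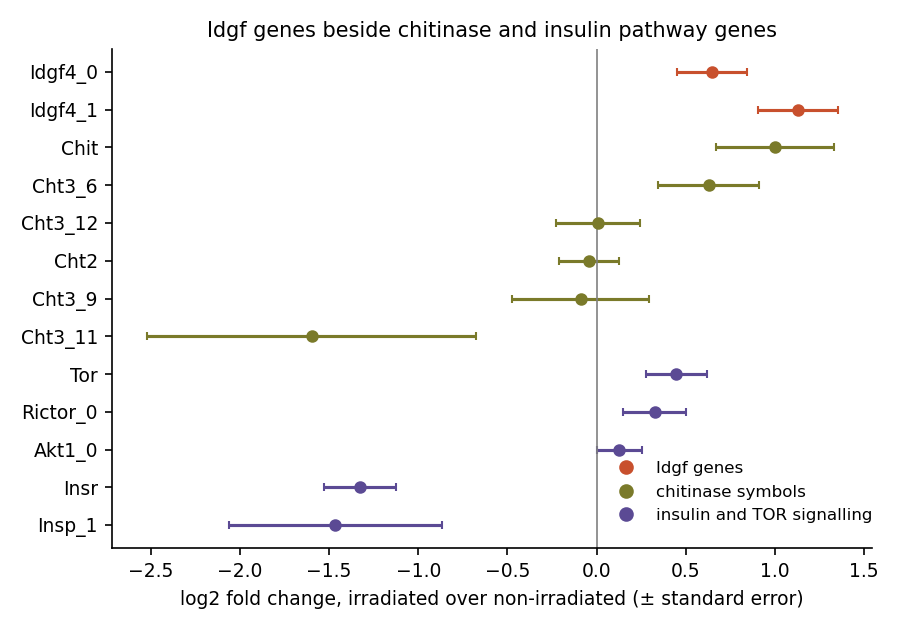
Log2 fold change, irradiated over non-irradiated, with bars of ± 1 standard error, for the Idgf genes (red), the genes with a chitinase symbol (olive, Chit and 5 Cht genes) and 5 of the 6 tested insulin and TOR signalling genes (violet). The Idgf genes stand at 0.65 and 1.13, the chitinase symbols between -1.60 and 1.00, and the insulin and TOR genes between -1.46 and 0.45.

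In the gene order of the RefSeq assembly idZeuCucr1.2, which is not the build the counts were made on, the genes lie on different chromosomes and are not neighbours. Of the 8 nearest genes, 2 on each side of each Idgf gene, 6 were tested and 0 were called at an adjusted p under 0.05 with edgeR, beside 3.74% of all tested genes. The gene next to Idgf4_0 on one side, LOC105213938, had a log2 fold change of 0.72 (edgeR adjusted p = 0.0677), and the one beyond it, LOC105213939, had 0.97 (adjusted p = 0.0965). On the other side, the interval of LOC105213936 overlaps that of Idgf4_0, and whether the counting used strand is not given in the sources used here, so reads in the overlap cannot be assigned with certainty. LOC105213936 had only 23 to 52 counts per library, against 8836 or more for Idgf4_0. The 3 tested neighbours of Idgf4_1 had log2 fold changes between -1.51 and 0.33.

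In RNA from whole larvae, fewer cells of a type and less RNA per cell cannot be told apart, and the age of the larvae within the 3rd instar is not given in the labels. Markers of the tissues that make Idgf proteins in *Drosophila*, and the marker lists after them, were followed by symbol alone. Whether each match is the gene meant by the list was not checked. Of 19 fat body symbols 5 genes were found, with a summed level of 1141 to 1614 FPKM in non-irradiated and 1416 to 1430 FPKM in irradiated libraries. None of the 5 was called with edgeR (0 at an unadjusted p under 0.05, and 0 with DESeq2), beside 3.74%, 21% and 9.15% of all genes by these rules, and Lsd-2, a protein of lipid droplets, had a log2 fold change of -0.25. Rfabg_1, a precursor of the main blood lipoprotein, had 803 ± 53.3 and 969 ± 23.5 FPKM (SD, n = 3 libraries each). For blood cells only Glt_1 and Glt_3 of 23 symbols were found, at a summed 10.7 to 58.6 FPKM in non-irradiated and 39.4 to 41.4 FPKM in irradiated libraries, with 0 called by either tool after adjustment, beside the same shares, and 0 at an unadjusted p under 0.05 with edgeR. For tracheal cells 0 of 17 symbols was found.

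Of 34 imaginal disc symbols 2 genes were found, Dll_0 and Ubx_2, at a summed 2.70 to 3.65 FPKM in non-irradiated and 1.76 to 2.05 FPKM in irradiated libraries. By edgeR 1 of the 2 was called lower, beside 1.6% of all tested genes. Dll_0, a gene of limb formation, was lower in irradiated larvae by edgeR (adjusted p = 0.0141), with -4.08 on the log2 scale (standard error 0.49), and Ubx_2 had -0.11. The size for Dll_0 rests on few reads, with 43, 28 and 47 counts without irradiation and 2, 5 and 1 after it. The call of Dll_0 was lost with irradiated replicates 1 and 2 summed (0.0578), without irradiated replicate 1 (0.0728) and with the replicate number as a block (0.0616), and a minimum of 10 counts in every library left Dll_0 out of the test. Of the moulting hormone response genes 5 were found for 44 symbols, at a summed 39.2 to 55.4 and 40.5 to 42.4 FPKM, and 0 of the 4 tested were called with edgeR (2 at an unadjusted p under 0.05, and 1 with DESeq2, ImpE2), beside 3.74%, 21% and 9.15% of all genes. ImpE2 (LOC105216289) had 97, 10 and 326 counts without irradiation and 6, 3 and 0 after it. Dll_0 and ImpE2 thus had the lower group mean where the Idgf genes had the higher one. Within the non-irradiated group, ImpE2 was highest in replicate 3, the library in which Idgf4_0 was also highest. Idgf4_1 was not highest there, with 205, 173 and 178 FPKM in non-irradiated replicates 1, 2 and 3. Any part of Dll_0 or ImpE2 in the Idgf values was not tested.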

How the data were processed

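RNA-seq libraries of 3 non-irradiated and 3 irradiated pools were grouped by their labels. The authors removed low-quality reads, aligned the rest with HISAT2 and counted them per gene with HTSeq. The deposited counts are raw whole numbers, and the deposited FPKM equal count over library total and 1 length per gene. All per-sample columns were used.

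The comparison used edgeR 4.0.16 in R 4.3.3 with TMM normalization, filterByExpr, a robust prior, the quasi-likelihood F test, and p-values adjusted by Benjamini-Hochberg over 9768 genes. The standard error is the log2 fold change divided by the square root of F. Alternatives were DESeq2 (1.42.0), other scalings and filters, limma (3.58.1) on log2(FPKM + 1) and log2(FPKM + 0.1), a replicate block, no robust prior, irradiated replicates 1 and 2 summed, and each library left out. The script was tested on simulated data.

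The members and lists were chosen with earlier results of these data known. Named were both Idgf genes, the 5 symbol-named genes each with the highest and the most negative correlation with Idgf4_0, their neighbours, and per list the called genes, up to 3 in each direction, or otherwise those with the smallest p. A few further list genes (Cht3_12, Chit, Akt1_0, Ubx_2, Glt_3) were named after their values were seen. A few genes that the rule or a list names are not reported here, though they stay in the counts. Lists were matched by symbol, without regard to case or the trailing number, and Insr, Insp_1 and ImpE2 by the identifiers the study gives. The RefSeq gene table matched 11831 of 12834 identifiers. Log values for correlations used an offset of 0.01 normalized CPM. Library totals put 1 count at 0.0546 to 0.0758 CPM.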

Additional observations from a re-analysis of the deposited data

How the results depend on the processing

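All 16 alternatives shifted the fold changes of Idgf4_0 and Idgf4_1 by less than the pooled within-group SD (0.24 and 0.30). Leaving out a library could hardly exceed that bound, because the left-out library also enters the SD, so nothing is concluded from it. For Idgf4_1 the SD was 0.42 in the irradiated and 0.03 in the non-irradiated group. The ranges over the left-out libraries were 0.51 to 0.80 for Idgf4_0 and 0.85 to 1.26 for Idgf4_1. The mean levels in non-irradiated larvae, without each library, were 405 to 466 FPKM for Idgf4_0 and 175 to 191 FPKM for Idgf4_1. The ratio of the genes, an alternative chosen after seeing the data, was 2.16 to 2.65 without each non-irradiated and 1.70 to 1.91 without each irradiated library.

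Calls over the whole table changed more. At an adjusted p under 0.05, 209 genes were higher and 156 lower. DESeq2 gave 554 and 480, the replicate block 54 and 35, irradiated replicates 1 and 2 summed 20 and 5, and leaving out a library 18 to 162 and 3 to 154. The number called higher moved by over 1.5 times without non-irradiated replicate 2 (120) or irradiated replicate 1, 2 or 3 (18, 22 and 95), and the number called lower without non-irradiated replicate 3 (90) or irradiated replicate 1, 2 or 3 (3, 5 and 43). Of the chitin list, which does not hold Chit, 0 genes met the study's threshold in the reported fit, beside 11.6% of all tested genes. With DESeq2 2 did, and 1 did each with total counts only, both limma fits and the replicate block, and 0 to 1 without a library. Of the insulin and TOR list, 1 gene was called after adjustment in the reported fit, beside 3.74% of all tested genes. The count was 0 with the replicate block, 0 with the pair summed and 0 to 1 without a library. By the study's threshold 2 of that list were called, beside the same 11.6% of all tested genes. The count was 1 each with at least 10 counts in every library, both limma fits, the replicate block and the pair summed, and 1 to 2 without a library. The cause of these changes was not tested. Whether same-numbered libraries of the groups belong together is not given in the sources used here. Their correlations of deviations from the group means were -0.01, -0.10 and -0.15, which cannot settle this with 3 libraries per group. With the replicate block, Idgf4_0 and Idgf4_1 had log2 fold changes of 0.65 and 1.09. Depth limits neither Idgf gene, whereas lists matched by symbol cover few genes of each pathway.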
